A study of Mus musculus with 59 samples.

Results

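Brain RNA of mouse embryos exposed to valpromide (VPM) in the womb was compared with that of embryos exposed to the vehicle, 0.5% (w/v) methylcellulose (MC), at E18.5 (embryonic day). The 12 arrays of this comparison, out of 59 in the series, were chosen by their labelled age and treatment: 3 arrays of hippocampus and 3 of forebrain from VPM embryos, and the same numbers from MC embryos. Pregnant C57BL/6 dams had been dosed by mouth at 300 mg/kg once a day from E12.5 to E14.5, so that E18.5 lay 4 days after the last dose, and dams of the MC group were given the vehicle on the same days. No transgene or deletion was involved. The labels call the arrays biological replicates but do not tie them to litters or dams, so p-values measure the spread between arrays and embryos of 1 litter may be among them. Set beside these were 6 E18.5 arrays of valproic acid (VPA, 300 mg/kg on the same days) and the E14.5 telencephalon arrays, taken 3 h after the last dose.

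Valpromide is the primary amide of valproic acid, an anti-epileptic and mood-stabilising drug. Valproic acid inhibits histone deacetylases, enzymes that remove acetyl groups from histones and other proteins, and valpromide is widely used as a related compound that lacks this activity in biochemical assays. At E18.5 the cortex and hippocampus are near the end of neuron production, glial cells are appearing, and blood vessels are still growing into the tissue.

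Signals were put on one scale by setting the 2% trimmed mean of every array to 500, and their log2 values were compared in limma with region as a blocking term (6 VPM against 6 MC), with Benjamini-Hochberg adjustment over 11731 genes. A gene passed at an adjusted p under 0.05. It was said to move alike in both regions where it passed and where, in each region, all 3 VPM arrays lay above, or all 3 below, all 3 MC arrays. The arrays were of even quality: those of a group correlated at 0.991 to 0.994, and Actb probe sets at the 3-prime end read 1.11 to 1.23 times those at the 5-prime end. Tissue labels were borne out by most markers of hippocampal fields and striatum. Prox1, a marker of dentate granule cells, was higher in the hippocampus by 1.24 ± 0.14 (SE, log2), and Drd2, a striatal dopamine receptor, was at -3.26 ± 0.13 for hippocampus minus forebrain. Of the other field markers tested, Zbtb20, Lef1, Grik4, Nr3c2, Lhx9 and Dkk3 were higher in the hippocampus, while Calb1 (-1.14) and Wfs1 (-0.60) were lower. Sex, read from Xist and Y-linked genes, was not balanced: hippocampal MC arrays were 3 males and 0 females, hippocampal VPM arrays 2 males and 1 female, forebrain MC arrays 1 male and 2 females, and forebrain VPM arrays 2 males and 1 female.

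Only 4 genes passed, 0.0341% of those tested, and all 4 moved alike in both regions. The gene that rose was Tfrc, the transferrin receptor (1 gene, 0.00852% of those tested). Those that fell were Apold1, an early response gene of endothelial cells, Arrdc3, an alpha-arrestin, and Id1, an inhibitor of basic helix-loop-helix transcription factors (3 genes, 0.0256%). At an unadjusted p under 0.05 there were 1032 genes (8.8%), 414 higher and 618 lower, and 6331 genes (54%) were lower at any p. The median log2 change over all genes was -0.01.

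Tfrc encodes transferrin receptor 1, which brings iron-loaded transferrin into the cell. Its signal was 739, 752 and 783 on the hippocampal MC arrays and 1204, 1216 and 1260.0 on the hippocampal VPM arrays. In the forebrain it was 1062, 1041 and 1092 with MC and 1312, 1412 and 1359 with VPM. The groups lay far apart in the hippocampus and did not overlap in the forebrain, where the MC level was already higher. Over both regions Tfrc rose by 0.52 ± 0.06 (SE, log2, limma, adjusted p = 0.00314), or 43.8%. The rise was 0.69 in the hippocampus, where Tfrc was the 1 gene that passed the test within that region (adjusted p = 7.89e-05, limma; that count of 1 became 125 without the MC array numbered 2 and 15 without the MC array numbered 3), and 0.35 in the forebrain (adjusted p = 0.192). The difference of 0.34 between the regions did not pass (adjusted p = 0.621 over all genes, limma). Tfrc was still among the 5 genes with the smallest p for that difference (unadjusted p = 0.000585, limma). Moving alike refers to the direction of a change, not to its size. The array carries 5 other probe sets for Tfrc, 3 of them array controls, and 5 of 5 were higher with VPM, by 0.27 to 0.82 on the log2 scale. Of these, 2 passed the filter on dim signals and 3 had separate groups in both regions; the dimmest lay near the floor of 32, and the one at 0.27 read 93.9 with both treatments in the forebrain. One of these read 187 ± 17.5 (SD, n = 3) in hippocampal MC, 356 ± 43.7 in hippocampal VPM, 281 ± 26.9 in forebrain MC and 416 ± 12.9 in forebrain VPM (limma over every probe set, adjusted p = 0.00458).

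Apold1, apolipoprotein L domain containing 1, is known as a gene switched on in endothelial cells by growth factors, low oxygen and neuronal activity. Its signal was 322, 509 and 508 on the hippocampal MC arrays against 196, 180.2 and 211 with VPM. Forebrain MC arrays read 379.8, 510.0 and 516, and forebrain VPM arrays 218, 217 and 278. Every VPM array was below every MC array of its region, and in each region the MC array numbered 1 was the lowest of the 3. Apold1 fell by 1.07 on the log2 scale (SE 0.125, adjusted p = 0.00314, limma), a change of -52.3% and the largest among the 4 genes. The change was -1.16 in the hippocampus and -0.97 in the forebrain.

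Endothelial markers were read beside it. The summed signal of 13 endothelial and pericyte markers ran from 11231 to 12228 in hippocampal MC, 11594 to 11885 in hippocampal VPM, 8317 to 10249 in forebrain MC and 8162 to 9221 in forebrain VPM, and 0 of 13 passed. The sums overlapped between VPM and MC in both regions, and 8 of the 13 were lower with VPM, near the share of 54% over all genes. At an unadjusted p under 0.05, 3 of the 13 were lower and 1 was higher, beside 5.27% and 3.53% of all genes. These were the VEGF receptors Kdr (-0.29) and Flt1 (-0.28), the pericyte potassium channel subunit Kcnj8 (-0.28) and the junction protein Esam (0.17), with adjusted p of 0.444 to 0.557 (limma). In bulk tissue, fewer cells of a type and less RNA per cell cannot be told apart.

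Id1 encodes a helix-loop-helix protein without a DNA-binding region, a target of bone morphogenetic protein signalling that holds back differentiation of neural stem cells and is also high in endothelial cells. Hippocampal MC arrays read 1080.1, 1106 and 1189, and hippocampal VPM arrays 700.3, 801 and 773. In the forebrain the values were 614, 789 and 832 with MC and 555, 532 and 589.8 with VPM. The forebrain groups were close, with the lowest MC array just above the highest VPM array. Id1 fell by 0.49 (SE 0.07, log2, adjusted p = 0.0277, limma), with -0.57 in the hippocampus and -0.40 in the forebrain. Its call was the least firm: leaving out 1 array at a time, it was lost in 10 of 12 fits, with adjusted p between 0.00108 and 0.103. Its relative Id3 was at -0.33 in the hippocampus and -0.06 in the forebrain and did not pass (adjusted p = 0.447, limma).

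Arrdc3 encodes an alpha-arrestin that links membrane receptors to ubiquitin ligases. Its signal was 1870.3, 2038 and 1976 on the hippocampal MC arrays and 1545, 1490.4 and 1407 with VPM. Forebrain arrays read 1871, 1900.4 and 1864 with MC and 1387, 1658 and 1443 with VPM. All VPM arrays were below all MC arrays. Arrdc3 fell by 0.37 (SE 0.05, log2, adjusted p = 0.00571, limma), with nearly the same change in the hippocampus (-0.41) and the forebrain (-0.33).

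**Figure D1:**
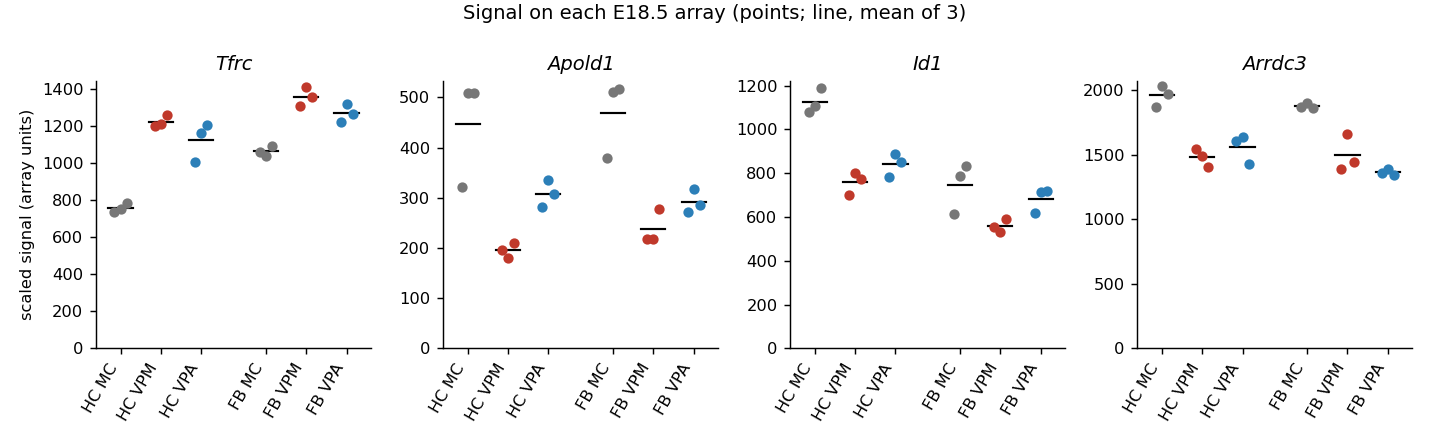
Scaled signal (linear axis from 0, array units) of Tfrc, Apold1, Id1 and Arrdc3 on each E18.5 array, 3 points per group with a line at the group mean; HC is hippocampus, FB forebrain, grey MC, red VPM and blue VPA. In both regions the red points lie above the grey ones for Tfrc and below them for the other 3 genes.

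These calls rest on the filter that kept genes with a signal of at least 100 on at least 3 arrays: with no filter (18194 genes), 0 genes passed, 1287 had an unadjusted p under 0.05, and the adjusted p of the 4 genes lay between 0.072 and 0.167 (limma). On the values as deposited, without scaling between arrays, 2 genes passed, 0 higher and 2 lower; Apold1 kept its call and the adjusted p was 0.535 for Tfrc and 1.00 for Id1 and Arrdc3. Just inside the threshold was Id1. Just outside it was Kcne4, a potassium channel subunit named after its values were seen, with a change of -1.12 (adjusted p = 0.0805).

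RefSeq promoter sequence was at hand for 3 of the 4 genes, Tfrc (2 entries), Apold1 (1) and Arrdc3 (3), and is shown because these genes moved alike in both regions. For each, the 250 bases before the start site of the first entry are given 5′ to 3′ on the gene's strand (build GRCm38.p6, plus strand in each case): Tfrc at chr16:32608646-32608895, Apold1 at chr6:134981751-134982000 and Arrdc3 at chr13:80883134-80883383. Capitals mark 6 motifs searched on both strands: the GC box GGGCGG, the CCAAT box CCAAT, the TATA box TATAAA, the core of the cyclic AMP response element TGACG, the hypoxia response core ACGTG and the E-box CACGTG, which contains ACGTG. 
Tfrc: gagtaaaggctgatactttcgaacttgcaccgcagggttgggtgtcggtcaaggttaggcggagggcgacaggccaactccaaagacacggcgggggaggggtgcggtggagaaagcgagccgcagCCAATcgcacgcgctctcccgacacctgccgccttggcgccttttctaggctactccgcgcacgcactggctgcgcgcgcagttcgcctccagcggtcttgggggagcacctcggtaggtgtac
Apold1: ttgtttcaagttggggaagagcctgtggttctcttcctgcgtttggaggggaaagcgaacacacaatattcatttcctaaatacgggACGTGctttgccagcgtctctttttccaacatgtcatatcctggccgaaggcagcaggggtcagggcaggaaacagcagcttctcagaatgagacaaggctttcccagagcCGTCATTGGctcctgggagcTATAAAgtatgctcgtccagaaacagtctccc
Arrdc3: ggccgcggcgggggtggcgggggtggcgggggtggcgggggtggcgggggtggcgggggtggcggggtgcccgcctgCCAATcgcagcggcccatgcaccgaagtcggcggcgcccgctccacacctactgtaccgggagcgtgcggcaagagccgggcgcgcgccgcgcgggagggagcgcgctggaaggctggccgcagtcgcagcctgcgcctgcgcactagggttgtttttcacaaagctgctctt

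All 3 printed windows hold CCAAT, as do 33.8% of the 32851 promoter windows of the same length. This holds for the entries shown, taken because they are listed first: the second entries of Tfrc and of Arrdc3 hold no CCAAT. Those entries hold the GC box, the cyclic AMP response core and the hypoxia response core. The Apold1 window also holds TATAAA (in 12.4% of all windows), a TGACG (17.8%) that overlaps the CCAAT by 1 base, both read on the opposite strand, and ACGTG (16.6%). The windows differ in base composition: 64.8% G or C for Tfrc, 50.8% for Apold1 and 76.0% for Arrdc3, beside a median of 52.4%. A match describes the letters of the window and is no evidence that a factor binds there.

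Other genes with small p-values did not pass and are given as values. Among the lower ones were Tcim, a small regulator of Wnt signalling, and Vegfa, the main growth factor of blood vessels. Tcim read 314, 388 and 517 with MC and 196, 296 and 256 with VPM in the hippocampus, and 342, 452 and 433 against 235, 251 and 264 in the forebrain. The groups did not overlap in either region, and the change was -0.70 ± 0.12 (SE, log2, adjusted p = 0.116, limma). Vegfa read 490.3, 532 and 600.4 with MC and 376, 426 and 289 with VPM in the hippocampus, and 561, 658 and 568 against 457, 440.3 and 464 in the forebrain. It was at -0.49 ± 0.09 (adjusted p = 0.127, limma), and its second probe set was at -0.35. Sox7, an endothelial transcription factor, was at -0.52, Ccn1, a matrix-associated signalling protein, at -0.47, Dusp16, a phosphatase of stress-activated kinases, at -0.35 and Ankrd37, a gene known to respond to low oxygen, at -0.34 (adjusted p 0.120 to 0.183, limma). Smaller values were found for the transcription factor subunit Gtf2a1 (-0.26) and for the small GTPase genes Rhoq (-0.25) and Rasl11b (-0.23).

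Slc38a2, a neutral amino acid transporter, had the smallest p among the named higher genes short of the threshold, with a signal of 4785, 5025 and 4755 in hippocampal MC, 5721, 6086 and 5957 in hippocampal VPM, 4737, 4989.7 and 4709 in forebrain MC and 5526, 4958 and 5366 in forebrain VPM. Its groups overlapped in the forebrain, and its change was 0.21 ± 0.04 (SE, log2, adjusted p = 0.135, limma). Acin1, a protein of splicing complexes, was at 0.22, the adaptor Sh2b2 at 0.27, the RNA helicase Ddx39a at 0.19, the lipid transfer protein C2cd2l at 0.23, the zinc finger genes Zbtb2 and Zfp207 at 0.27 and 0.14, and the histone H2A deubiquitinase Usp16 at 0.20 (adjusted p 0.135 to 0.260). The kinase Ptk2b was at 0.43, the RNA methyltransferase Nsun5 at 0.42 and the small GTPase Rhoc at 0.50 (adjusted p 0.244 to 0.258). Second probe sets that passed the filter did not give the same picture for several of these genes. They were at -0.02 for Rhoc, -0.03 for Nsun5 and 0.04 for Slc38a2 (another was at 0.42), between -0.12 and 0.07 for the 4 others of Zfp207, and at 0.04 and -0.08 for Gtf2a1. For Acin1, Sh2b2 and Ptk2b they were at 0.27, 0.26 and 0.38.

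Over all genes, the groups were separate in both regions in 1 direction for 142 genes (1.21%), 65 higher (0.554%) and 77 lower (0.656%), and in opposite directions for 66 (0.563%). Of the 1477 genes with an unadjusted p under 0.05 in the hippocampus (12.6% of those tested), 827 (56.0%) had the same sign in the forebrain, and 71 (4.81%) also had a p under 0.05 there in the same direction against 23 (1.56%) in the other. Those 71 were 15.5% of the 458 genes with such a p in the forebrain (3.9% of those tested). Across genes the changes in the regions had a Pearson correlation of -0.01 and a Spearman correlation of 0.05, a description over genes that share arrays. Within the forebrain 0 genes passed (limma). The difference between the regions passed for 0 genes too, with 858 (7.31%) at an unadjusted p under 0.05 (limma). Among the smallest p for that difference was Ddn, a dendrite protein, at -0.67 in the hippocampus and -0.02 in the forebrain (adjusted p = 0.621). Tfrc, at 0.69 and 0.35, was among them too (adjusted p = 0.621, limma).

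**Figure D2:**
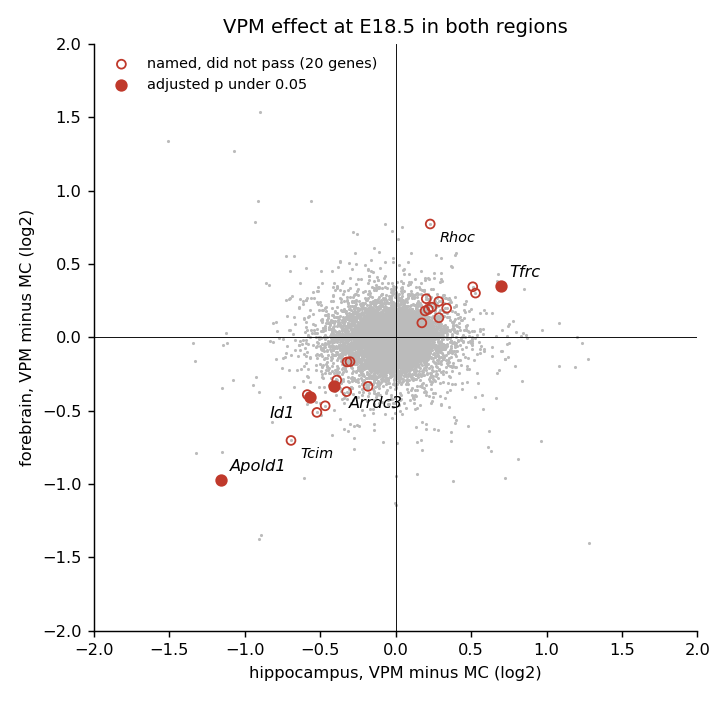
Log2 change with VPM in the hippocampus (x) and the forebrain (y) for the genes tested (grey; 1 gene lies beyond the axes), with the 4 genes that passed filled and the 20 other named genes as open circles. The grey cloud shows no slope (Pearson -0.01), and Apold1, at -1.16 and -0.97, lies farthest along the lower diagonal among the 24 marked genes.

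Genes of low oxygen response and glycolysis were mostly lower with VPM, though 0 of 15 passed. Of the 15 tested, 13 were lower, 8 of them at an unadjusted p under 0.05 against 1 higher, beside backgrounds of 5.27% lower and 3.53% higher over all genes. The median was -0.12 (-0.18 in the hippocampus and -0.10 in the forebrain), beside -0.01 over all genes. Vegfa and Ankrd37 were described above. Adm, the vasodilator peptide adrenomedullin, read 126, 97.9 and 202 in hippocampal MC against 54.8, 78.4 and 88.2 with VPM, and 109.9, 188 and 138 in forebrain MC against 39.3, 70.7 and 59.2 with VPM. It was a dim gene whose groups were separate in both regions, and its change was -1.14 ± 0.22 (SE, log2, adjusted p = 0.135, limma). With the mean over probe sets in place of 1 probe set per gene, both Vegfa and Adm passed (adjusted p = 0.0307 each, limma). Pfkfb3, which makes an activator of glycolysis, went the other way, at 0.17 (adjusted p = 0.303).

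Immediate early genes, which respond within minutes to activity or growth factors, gave a median of -0.15: 12 of 13 were lower, 6 of them at an unadjusted p under 0.05, and 0 passed (limma), beside 54% and 5.27% of all genes for the first 2 counts. The phosphatase Dusp1 and the AP-1 subunit Jun were both at -0.21, and the AP-1 subunit Jund at -0.15, which turned to 0.0162 with the mean over its probe sets. Egr1, a zinc finger factor of the same class, was the exception at 0.30. It read 326, 432 and 441 in hippocampal MC, 505, 451 and 523 in hippocampal VPM, 583, 556 and 545 in forebrain MC and 666, 639 and 757 in forebrain VPM (adjusted p = 0.278, limma). Its groups were separate, and higher with VPM, in both regions. Within a region, 10 of 13 members were lower in the hippocampus and 10 of 13 in the forebrain.

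Members of the Notch pathway, which keeps neural progenitors undifferentiated and patterns vessels, were lower in 13 of 13 cases over both regions, with a median of -0.08, beside 54% of all genes. Within a region, 11 of 13 were lower in the hippocampus (median -0.18) and 8 of 13 in the forebrain (median -0.05). At an unadjusted p under 0.05 there were 4 lower, beside 5.27% of all genes, and 0 passed: the receptors Notch2 (-0.26) and Notch3 (-0.14), the ligand Jag1 (-0.22) and the target Hes1 (-0.34), with adjusted p of 0.303 to 0.555 (limma). Their values overlapped between VPM and MC in at least 1 region, as for Hes1 with 320, 517 and 493 against 280, 393 and 327 in the hippocampus.

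Genes described as responders to deacetylase inhibitors were mostly lower with VPM at E18.5. Of 12 tested, 10 were lower with a median of -0.24, and 0 passed (limma). Over all genes, 54% were lower, with a median of -0.01. The lowest p-values were for the Kruppel-like factors Klf4 (-0.38) and Klf2 (-0.31), which are also endothelial genes, and the linker histone H1f2 (-0.29), each lower at an unadjusted p under 0.05. Of all genes, 5.27% were lower at such a p. The 11 histone deacetylases had a median of 0.03, with 0 at such a p.

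**Figure D3:**
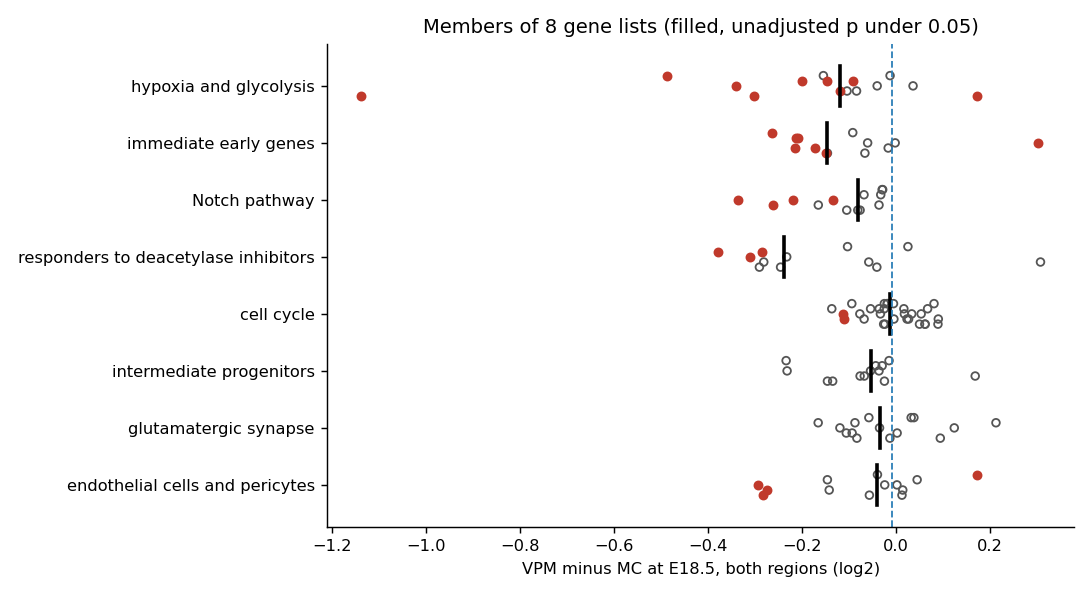
Log2 change with VPM over both regions (x) for the tested members of 8 gene lists (rows), each point a gene, filled where the unadjusted p was under 0.05; black bars are list medians and the dashed line the median of all genes (-0.01). Points of hypoxia and glycolysis lie mostly left of the line, with Adm at -1.14, while cell cycle genes cluster at a median of -0.01.

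Markers of cell types described the make-up of the samples. In the hippocampus the summed signal of astrocyte markers was lower with VPM, 23536 to 24335 against 26898 to 28738 with MC. In the forebrain the ranges overlapped, 18366 to 19973 against 18054 to 19707. Such separation was not particular to astrocytes: 15.5% of all genes had separate groups in the hippocampus and 11.3% in the forebrain. The sums of the hippocampal field, Notch and immediate early lists were also separate, and lower with VPM, in the hippocampus. In the forebrain the Notch sum was separate too, 7611 to 8153 with VPM against 8169 to 8527 with MC. Other forebrain sums were also separate, among them the cell cycle and intermediate progenitor sums, which were lower with VPM. The oligodendrocyte lineage sum was higher there, 7506 to 7998 against 6864 to 7295. The GABAergic interneuron sum was lower too, 17632 to 18515 against 20392 to 22902 in the hippocampus, and overlapped in the forebrain. That sum includes Reln, also a Cajal-Retzius marker, which reached 11749, the highest signal of the interneuron list. Reln was higher in the hippocampus than in the forebrain (0.85), unlike Gad1 (-1.21) and Gad2 (-1.28). The Cajal-Retzius sum was likewise lower in the hippocampus, 10861 to 12263 against 13034 to 16104, and overlapped in the forebrain. Reln made up most of that sum, as the next brightest Cajal-Retzius marker, Calb2, reached 2124. The interneuron and Cajal-Retzius sums share Reln and are not separate readings of the cell types. Markers of hippocampal fields had medians of -0.37 in the hippocampus and 0.00 in the forebrain. Single markers with an unadjusted p under 0.05 included Gad2, a GABA-synthesising enzyme (-0.30), Sst, an interneuron peptide (-0.30), Prox1 (-0.39), the Wnt effector Lef1 (-0.34) and Gja1, the astrocyte gap junction protein (-0.38), and 0 members of these lists passed (adjusted p 0.303 to 0.554, limma). Meningeal and fibroblast markers lay in opposite directions in the regions: 1 of 12 was lower with VPM in the hippocampus (median 0.26) and 12 of 12 in the forebrain (median -0.45), with 0 at an unadjusted p under 0.05 over both regions.

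Choroid plexus, a tissue next to the hippocampus, varied widely within groups: the summed signal of its markers ran from 1814 to 31145 in hippocampal MC and from 1153 to 28543 in hippocampal VPM, and from 18332 to 26215 and 20736 to 24841 in the forebrain. Red blood cell markers were sparse, with 2 of 13 tested (Alas2 -0.28 and Hba-a2 -0.13) and Hbb-bh1 and Epb42 under the floor of 32 on all arrays. The summed red cell signal was 601 to 843 in hippocampal MC, 639 to 696 in hippocampal VPM, 651 to 800.2 in forebrain MC and 514 to 722 in forebrain VPM. Tfrc, which red cell precursors also carry, rose while these sums overlapped. The part of any of these markers in the results above was not tested.

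In the telencephalon at E14.5, VPM against MC gave 1299 of 11098 genes that passed (11.7%, limma), 628 higher (5.66%) and 671 lower (6.05%), where E18.5 gave 4. Leaving out the E14.5 VPM array numbered 3, or the MC array numbered 2 or 3, moved the count of 1299 to 551, 786 or 767. On the VPM array numbered 3 the summed signal of choroid plexus markers was 20683. It was 315 and 483 on the other E14.5 VPM arrays and 263 to 382 with MC. The part of this tissue in the E14.5 counts was not tested. On the values as deposited it was 462, 162 higher and 300 lower. Tfrc was at -0.08 (adjusted p = 0.548) and Apold1 at 0.33 (adjusted p = 0.0866). Arrdc3 was at -0.30 (adjusted p = 0.0541). Id1 was the 1 gene of the 4 that passed at both ages: it had risen at E14.5, by 0.37 (adjusted p = 0.0243, limma), with 413, 431 and 389 on MC arrays and 509, 499 and 595 on VPM arrays, and fell at E18.5. The ages were not compared in 1 model, and the tissue differed, so these values stand side by side.

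Several gene lists had many calls at E14.5, where 5.66% of all genes rose and 6.05% fell. No list held a call at E18.5, where 4 of 11731 genes (0.0341%) passed, so that absence says little about any 1 list. The E14.5 counts below are over the members tested at E18.5. These were 30 cell cycle, 13 intermediate progenitor, 15 glutamatergic synapse, 13 Notch and 9 oligodendrocyte lineage genes. Cell cycle genes fell in 27 cases at E14.5 (median -0.45) and had a median of -0.01 at E18.5, where 0 of 30 passed (limma) and 2, Mcm5 and Ccnd1, had an unadjusted p under 0.05. Intermediate progenitor markers fell in 9 cases at E14.5 (median -0.50) and were at -0.05 at E18.5, with 12 of 13 lower, beside 54% of all genes. Genes of the glutamatergic synapse rose in 8 cases at E14.5 (median 0.44) and were at -0.04 at E18.5, with -0.11 in the hippocampus and 0.03 in the forebrain. Notch pathway genes fell in 6 cases at E14.5 (median -0.36) and, as given above, were all lower at E18.5 without passing. Oligodendrocyte lineage markers rose in 4 cases at E14.5 (median 0.75) and lay on opposite sides of 0 at E18.5, at -0.27 in the hippocampus and 0.07 in the forebrain. Of the 21 tested members of a 25-gene list taken from the E14.5 result of these data, 0 passed at E18.5 (limma) and 12 were lower, with Hes1 (-0.34), Alas2 (-0.28) and Neto1, a glutamate receptor auxiliary protein (-0.13), at an unadjusted p under 0.05. Alas2, the haem synthesis enzyme of red cells, and Neto1 had risen at E14.5, by 0.97 and 0.81. The summed signal of red blood cell markers went the other way at E14.5, with 2673 to 3302 on VPM arrays against 11118 to 12872 with MC. Among the 1283 genes called at E14.5 and tested at both ages, 57.5% had the same sign at E18.5, beside 50.6% of all 10944 genes. Those with an unadjusted p under 0.05 in the same direction were 86 (6.70%), against 4.78% of all genes.

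**Figure D4:**
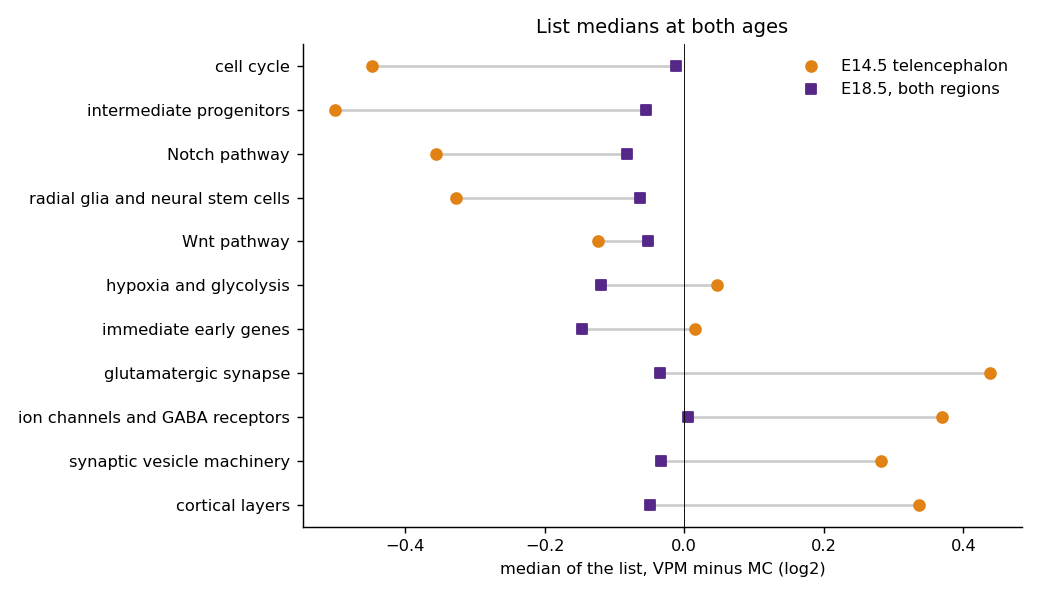
Median log2 change with VPM of 11 gene lists (rows) in the E14.5 telencephalon (orange circles) and at E18.5 over both regions (purple squares), joined by grey lines. E14.5 medians spread from -0.50 for intermediate progenitors to 0.44 for the glutamatergic synapse, and E18.5 medians lie between -0.15 and 0.01.

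VPM and VPA, an amide and its acid, were compared at the same dose and age over 6 arrays each with region as a block. The difference passed for 438 of 11901 genes (3.68%), 244 higher (2.05%) and 194 lower (1.63%) with VPA (limma on 18 arrays), and 2327 (19.6%) had an unadjusted p under 0.05. On the values as deposited it passed for 24 genes, 21 higher and 3 lower with VPA. Against the same MC arrays, VPA gave 387 genes that passed (3.25%) where VPM gave 4. Leaving out the hippocampal VPM array numbered 2 or 3, or the hippocampal VPA array numbered 2 or 3, moved the count of 438 to 213, 198, 238 or 237. The arrays also differed in choroid plexus. In the forebrain its summed marker signal was 688 to 5013 with VPA, 20736 to 24841 with VPM and 18332 to 26215 with MC. In the hippocampus it was 23366 to 28051 with VPA and 1153 to 28543 with VPM. The part of this tissue in the counts was not tested.

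The 4 genes were each compared between the compounds, with p-values adjusted over all genes. Apold1 was less reduced with VPA, at 282, 335 and 308 in the hippocampus and 272, 317 and 286 in the forebrain, all above the VPM arrays of the hippocampus but overlapping those of the forebrain. The difference of VPA minus VPM was 0.48 (95% interval 0.23 to 0.72, adjusted p = 0.0286, limma). For the other 3 genes the difference did not pass: -0.11 (-0.24 to 0.01) for Tfrc, -0.03 (-0.13 to 0.08) for Arrdc3 and 0.22 (0.06 to 0.38) for Id1, with adjusted p of 0.321, 0.820 and 0.108. These intervals bound the difference and do not show that the compounds act alike. VPA minus MC, which shares the MC arrays, was 0.41 for Tfrc, -0.59 for Apold1 and -0.40 for Arrdc3 (adjusted p 0.00132, 0.00907 and 0.000761, limma), and -0.27 for Id1 (adjusted p = 0.0564).

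Some genes differed between the acid and the amide. Of the 5 with the smallest adjusted p (0.00127 to 0.00128, limma), 0 passed for VPM against MC. Only 4 of 11731 genes (0.0341%) passed there, so that count says little about these 5. Klf9, a transcription factor that responds to thyroid hormone and glucocorticoids, read 616, 639 and 622 with VPM in the hippocampus and 687, 700.4 and 712 in the forebrain, against 843, 1067 and 1069 and 1067, 1257 and 1034 with VPA. VPA minus VPM was 0.67, and VPM minus MC was 0.06 (adjusted p = 0.866). Nrgn, the postsynaptic protein neurogranin, differed by 0.76. Pla2g3, a secreted phospholipase, differed by 0.85 and was a dim gene, at 72.5 to 194 over the E18.5 arrays. Pik3r3, a regulatory subunit of phosphoinositide 3-kinase, differed by -0.38. Zfp207 differed by -0.26 on its brightest probe set, but with the mean over probe sets the difference was 0.0136 (adjusted p = 0.944, limma), which ends the call and turns the direction. Acin1 and Slc38a2 were also lower with VPA than with VPM, with differences of -0.26 and -0.17 (adjusted p = 0.00479 and 0.0214, limma). Both had been named above for higher values on the same VPM arrays, which favours a negative difference here. VPA minus MC was -0.04 for Acin1 and 0.04 for Slc38a2 (adjusted p = 0.729 and 0.616, limma).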

How the data were processed

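Affymetrix Mouse 430 2.0 arrays read the RNA of each sample. The deposited values are intensity on a linear scale, 1 per probe set. GCOS is the program listed in the submitters' processing notes; which algorithm and scaling it ran with is not given in the sources used here. Trimmed means of the deposited intensity ran from 207 to 343 over the 12 arrays, and 0 of 66 pairs of arrays were identical. A factor per array brought its 2% trimmed mean to 500, signals under 32 were set to 32 (31.2% to 34.0% of probe sets), and log2 was taken. Of 45101 probe sets, 34958 carried 1 gene symbol, 932 several and 9211 none; 34754 were found by gene ID in RefSeq (GRCm38.p6). The probe set with the highest mean over the E18.5 arrays stood for each of 18194 genes, and genes with a signal of at least 100 on at least 3 of the 12 arrays were tested. The tests used limma 3.58.1 in R 4.3.3 (with data.table version 1.17.8), a variance trend on intensity, Benjamini-Hochberg adjustment at 0.05, and additive terms for region and treatment; effects within a region and their difference came from 1 term per region and treatment. Precision is set by 3 arrays a group. Data were simulated for the comparison over both regions (11731 genes), with independent noise and 100 genes changed by 0.5 and 100 by 1 (log2). Of these, 81% of genes changed by 0.5 and 96% changed by 1 were recovered, with 6 false calls of 183. With so many changed genes the adjusted threshold is looser than in the real data, where 4 genes passed. The recovered shares are therefore not the power of the real comparison. Figures were drawn with matplotlib 3.10.9 in Python 3.11.15 (pandas 2.3.3, numpy 2.4.6).

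Named genes are up to 12 per direction that moved alike with a signal of at least 200, filled to 12 by the smallest p and stated not to pass, up to 4 genes of any list by lowest p, and the 5 with the smallest adjusted p for VPA against VPM and for the difference between regions; predicted genes, clone names and sex genes were not named. Members and the 42 lists (610 members, 562 matched) were chosen with earlier results of these data known. Alternatives were quantile normalization, values as deposited, log2(signal + 32), no filter or a filter at 200, no trend, other choices of probe set, all 18 E18.5 arrays, other models and blocks, inferred sex, and leaving out each array. The labels do not say whether replicate numbers pair the arrays. Of 18 same-numbered pairs, 4 correlated above 0.1. The array numbered 3 had the lowest deposited trimmed mean of each group compared. It was 230 in hippocampal MC, 207 in hippocampal VPM, 240 in forebrain MC and 270 in forebrain VPM. Whether a number marks a shared batch or litter was not tested.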

Additional observations from a re-analysis of the deposited data

Results flagged for a closer look

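Genes were marked here where all 3 VPM arrays lay on one side of all 3 MC arrays in the hippocampus and on the other side in the forebrain, as 66 of 11731 genes did. The difference between regions did not pass for any of those named (adjusted p 0.621 to 0.637 over all genes, limma). Values are the hippocampal minus the forebrain log2 change. Smarcd1, a subunit of chromatin remodelling complexes, read 1304, 1251 and 1330 with MC against 1504, 1509 and 1460.3 with VPM in the hippocampus and was lower with VPM in the forebrain (-0.14), a difference of 0.345. Xrn2, a nuclear RNA exonuclease, differed by 0.464 (0.32 in the hippocampus, -0.15 in the forebrain). Phka1, a subunit of phosphorylase kinase, was a dim gene that differed by -1.23 (-0.67 and 0.56). Hr, a nuclear corepressor, differed by 0.54, and Hsph1, a heat shock protein, by -0.186.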

How the results depend on the processing

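The count over both regions and the count alike in both regions gave 4 under quantile normalization, log2(signal + 32), a filter at 200, all 18 arrays, the mean of the region effects, the random block and inferred sex, 3 without the intensity trend, 7 with every probe set, 8 with the mean over probe sets, 1 with the mean of same-numbered arrays (Tfrc), 0 with no filter, and 2 and 1 on values as deposited. Without a filter or a trend, tried after seeing the data, it was 0. Leaving out 1 array gave 3 to 4, and Tfrc, Apold1 and Arrdc3 kept their calls each time. Same-numbered means gave adjusted p of 0.163 for Apold1, 0.215 for Id1 and 0.132 for Arrdc3 (limma), and no trend gave 0.0655 for Id1. The hippocampal count of 1 was 2 under quantile normalization, no trend, the mean over probe sets and the replicate block, 5 with no filter or inferred sex, 6 with every probe set or all 18 arrays and 8 as deposited; leaving out 1 array gave 1 to 125 (125 without hippocampal MC array 2, 15 without hippocampal MC array 3, and 2 or 3 without each of 5 others). The forebrain count of 0 was 3 as deposited and 0 to 3 without 1 array (3 without hippocampal MC array 1, 1 without forebrain MC array 3), and the count for the difference between regions was 5 as deposited and 0 to 1 (1 without hippocampal MC array 2). VPA against VPM gave 24 genes as deposited, 243 with no filter, 290 with same-numbered means and 198 to 517 without 1 array. E14.5 gave 462 as deposited, 624 with no filter and 551 to 1001 without 1 array (551 without VPM array 3, 786 and 767 without MC arrays 2 and 3). With the mean over probe sets Jund was at 0.0162, and VPA minus VPM for Zfp207 at 0.0136, where 1 probe set each gave -0.15 and -0.26. The cause of these shifts was not tested.

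Same-numbered arrays correlated between -0.28 and 0.22, and 5 of 12 correlated best with an array of their own number. The replicate block gave 5 genes over both regions, 4 shared, adding Tcim (adjusted p = 0.00965, limma), 481 for VPA against VPM and 1236 at E14.5. Hippocampal and forebrain arrays of 1 number differed in sex in 4 of 6 cases. Of 1765 values of 68 genes under the alternatives, 1734 kept direction and side of the threshold, which asks little of genes that had not passed. The 25 lost calls were all of the 4 genes: 10 leave-out fits and 5 other alternatives for Id1, and 4 alternatives for Arrdc3, 3 for Apold1 and 3 for Tfrc.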

Other observations

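Other gene groups held single genes whose groups were separate in both regions without passing. Ebf1, a transcription factor of striatal neurons and pericytes, was at -0.38 (-0.40 in the hippocampus, -0.35 in the forebrain, adjusted p = 0.287, limma). Atf4, the transcription factor of the integrated stress response, was at 0.24, with 1900.5, 1836 and 2180.5 in hippocampal MC against 2554, 2478 and 2649.7 with VPM (adjusted p = 0.277). The ligand gene Wnt7b, which acts on vessels and neurons, was at -0.14, and Fkbp5, a target of the glucocorticoid receptor, at 0.12 (adjusted p = 0.398 and 0.433). Among clock genes, Bhlhe40 was at -0.37 and Per1 at -0.25, with the forebrain groups overlapping. Of 12 clock genes, 5 were lower, beside 54% of all genes. Of 17 cholesterol synthesis genes 0 had an unadjusted p under 0.05 or passed (limma), and the median was 0.00. Among immature neuron genes, Neurod1 (-0.24) and Bcl11b (-0.13) had an unadjusted p under 0.05, and 12 of 18 were lower, beside 54% of all genes.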
